A study of Mus musculus with 7 samples.

Results

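The 4 arrays of mouse embryonic fibroblasts that lack or are depleted of tenascin-C were set against the 3 arrays of wild-type fibroblasts, and the genes described are those on which both kinds of deficient cell stood on the same side of wild type. Arrays of spontaneously immortalised fibroblast clones were used: 3 clones grown from wild-type mice, 2 clones grown from tenascin-C knockout mice (called knockout) and 2 clones of wild-type cells carrying a stably transfected short hairpin RNA against tenascin-C (called knockdown). Each culture was started from 50000 cells, kept 2 days in medium with fetal calf serum and left untreated before total RNA was taken. The deleted stretch of the knockout allele, the hairpin sequence, the mouse strain and the sex of the embryos are not given in the labels, and no group with a control hairpin is analysed here. Every array is a clone, so what a group shares cannot be told apart from what its few clones share. Whether clones of the same group stem from different animals is not stated, so p-values measure only the spread between these clones. Values are log2 signals of gene-level probe sets, and a change is the mean of the knockout and knockdown group means minus the wild-type mean, in log2 units.

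A gene is called shared where all 4 deficient arrays lay on 1 side of all 3 wild-type arrays and the smaller of the knockout and knockdown changes was at least 0.5 of the larger. Of 16801 genes tested, 912 (5.43%) were shared: 490 were higher in the deficient cells, which is 2.92% of the genes tested, and 422 were lower, which is 2.51%. These counts, and the sizes and directions of the members, follow from a rule that reads the same arrays. They are descriptions, and no test is attached to them. If arrays were exchangeable, the 4 and 3 arrays of a gene would separate completely, in either direction, with probability 0.0571. Before the size rule, 1294 of the 16801 genes separated, 4.15% higher and 3.55% lower. As 0.0571 is also the smallest p of an exact two-sided permutation test, the non-overlap of a gene cannot reach 0.05 on its own.

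Tenascin-C is a large multi-armed glycoprotein of the extracellular matrix that is abundant in embryonic mesenchyme, in wounds and around tumours and is scarce in most resting adult tissue. It binds fibronectin and integrins, and fibroblasts plated on mixed fibronectin and tenascin-C spread less and form fewer actin stress fibres than on fibronectin alone. Fibroblasts build the interstitial matrix, cut and remodel it with metalloproteinases and the plasminogen system, store TGF-beta family ligands in it, and answer Wnt and interferon signals.

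The cells carried fibroblast genes on every array: of 14 fibroblast markers measured, 12 to 14 stood above the array median, and their mean log2 signal was 9.91 to 10.53. Of 10 macrophage and blood markers 1 or 2 stood above the median on each array, with list means of 4.46 to 4.68, and of 10 endothelial markers 2 or 3 did, with list means of 4.86 to 5.01. Of 10 skeletal muscle markers 5 or 6 stood above the median (list means of 5.35 to 5.57), of 8 neural and glial markers 4 to 6 (5.92 to 6.28), of 8 pericyte markers 4 (6.10 to 6.53), of 8 adipocyte markers 3 to 5 (4.78 to 5.37), of 8 cartilage and bone markers 3 (5.50 to 5.69) and of 10 epithelial markers 2 or 3 (4.94 to 5.41). Sex-linked transcripts differed among clones: Xist, which silences an X chromosome in female cells, read 8.80 on knockout array 2 and 3.51 to 3.77 on the other arrays, and the Y-linked gene Uty read 3.14 on knockout array 2, 4.98 on knockdown array 2 and 6.75 to 8.02 elsewhere. Leaving out both deficient arrays numbered 2 gave 1785 shared genes, since fewer arrays have to clear the wild-type range.

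Tnc was the only gene that was both shared and past the gene test. Tnc (gene identifier 21923, probe set 10513739, chromosome 4) had log2 signals of 10.88, 11.42 and 11.38 on the wild-type arrays. The knockout arrays read 8.05 and 8.51, and the knockdown arrays read 7.34 and 6.52. Every deficient array lay at least 2.38 below the lowest wild-type array, and both knockdown arrays lay below both knockout arrays. Across both deficient groups Tnc fell 12.3-fold (log2 change -3.62 ± 0.247 SE, adjusted p = 0.0244, limma with Benjamini-Hochberg adjustment over all genes tested), with changes of -2.95 in knockout and -4.30 in knockdown. The knockout and knockdown groups differed by 1.35 ± 0.324 SE, which did not pass (adjusted p = 0.139). The labels do not say whether the probe set lies in the deleted part of the gene, so the signal left in the knockout cells does not measure intact message. Leaving out any 1 of the 7 arrays ended the call (adjusted p from 0.088 to 0.216), while the change stayed between -3.82 and -3.42.

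The test over all genes called 5 of 16801 genes (0.0298%), 3 of them higher (0.0179%) and 2 lower (0.0119%). An unadjusted p under 0.05 was reached by 2060 genes, against 840 for a uniform distribution of p. Apart from Tnc, the called genes were not shared. Grb10, which encodes an adaptor that dampens insulin and IGF receptor signalling and is imprinted, read 4.63, 4.70 and 4.63 in wild type, 11.55 and 10.73 in knockout and 4.89 and 4.89 in knockdown (log2 change 3.36 ± 0.188 SE, adjusted p = 0.015). Its rise across the deficient cells was carried by the knockout arrays. Hoxc6, a homeobox gene of trunk patterning on chromosome 15, read 4.03, 4.57 and 4.59 in wild type, 8.24 and 8.48 in knockout and 4.45 and 4.42 in knockdown (2.00 ± 0.159 SE, adjusted p = 0.0474), and its knockdown arrays overlapped wild type. Rpl39l, a paralogue of the ribosomal protein gene Rpl39, fell (-2.30 ± 0.131 SE, adjusted p = 0.015) and read 8.37, 8.34 and 7.91 in wild type, 3.90 and 4.09 in knockout and 7.80 and 7.84 in knockdown; near-identical paralogues can share probe signal, so this value is uncertain. Grina, which encodes a membrane protein of the TMBIM family, read 8.83, 8.88 and 8.86 in wild type, 10.07 and 10.11 in knockout and 9.48 and 9.44 in knockdown (0.92 ± 0.0551 SE, adjusted p = 0.015); its knockdown change was 0.49 of its knockout change, just under the size rule. These 4 calls were also lost when a single array was left out: all 4 without any wild-type array except that Rpl39l kept its call without wild-type array 3, all 4 without either knockdown array, and Grina, Hoxc6 and Rpl39l without either knockout array.

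On 697 genes (4.15%) the deficient arrays all lay above the wild-type arrays and on 597 (3.55%) all below, 1294 in total. The size rule set aside 382 of these, 180 with the larger change in knockout and 202 with the larger change in knockdown. Knockout and knockdown differed past the test on 63 of 16801 genes (0.375%). The size rule itself selects against such a difference; none of the 912 shared genes and 6 of the 382 set aside were among those 63, which is a description and no test. Just inside the size rule, Pdlim7 stood at 0.62 in knockout and 0.31 in knockdown, and just outside it Dpf2 stood at 0.33 in knockout and 0.16 in knockdown, so the limit parts genes that are nearly alike. The narrowest gap of a shared gene with a change of at least 0.5 was that of Fam234a, whose lowest deficient array read 8.30 and highest wild-type array also 8.30, 0.0004 apart. A further 43 genes met the rule but were too dim to be tested and are not counted.

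Among shared genes the changes were mostly small. The median change was 0.35 for the 490 higher genes, with quartiles of 0.25 and 0.50, and -0.35 for the 422 lower genes, with quartiles of -0.51 and -0.25. A change of at least 1 was seen for 19 higher and 25 lower genes, and of at least 0.5 for 126 and 108. Over all genes tested the median change was 2e-04. The lowest adjusted p among the higher genes was 0.0876, so apart from Tnc each shared gene below is given by its values without a claim of change.

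**Figure D1:**
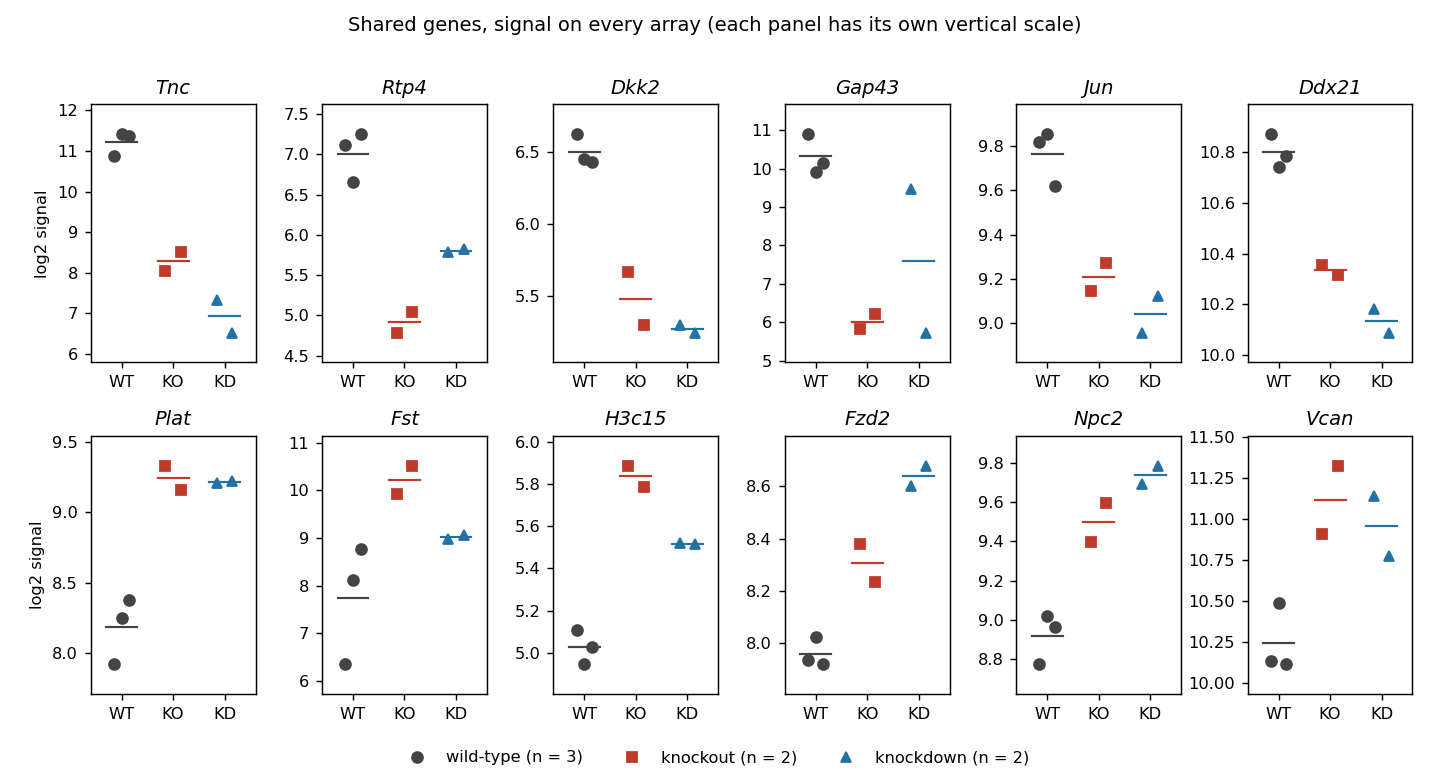
Log2 signal of 12 shared genes on every array, 1 panel per gene; circles are wild-type arrays (WT, n = 3), squares knockout (KO, n = 2), triangles knockdown (KD, n = 2), and bars are group means. In each panel all 4 deficient arrays lie on 1 side of the wild-type arrays, with a gap that is wide for Tnc and Rtp4 and narrow for Fst.

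Plat, which encodes tissue plasminogen activator, the secreted protease that turns plasminogen into plasmin, was shared higher. On Plat (probe set 10570855, chromosome 8) the wild-type arrays read 7.92, 8.25 and 8.38, the knockout arrays 9.33 and 9.16 and the knockdown arrays 9.21 and 9.22. The 4 deficient arrays spanned only 9.16 to 9.33, and the highest wild-type array lay 0.776 below them. The change was 1.06 in knockout and 1.03 in knockdown (together 1.05 ± 0.122 SE, adjusted p = 0.106), and the knockout minus knockdown difference was 0.03 with a 95% interval of ± 0.39. Of the 15 plasminogen genes tested, Plat was the only member shared higher (6.67%, against 2.92% of all genes tested). Serpinb2, an inhibitor of plasminogen activators, was the only one shared lower, and none was called. On Serpinb2 the wild-type arrays read 4.61, 4.86 and 4.75, the knockout arrays 4.54 and 4.24 and the knockdown arrays 4.54 and 4.27, a change of -0.34. All Serpinb2 values lay below the array medians of 5.38 to 5.49. The list's median change was 0.02.

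Genes of the interstitial matrix stood higher in the deficient cells more often than not: 30 of 38 tested had a change above 0. Of the 38, 7 (18.4%, against 2.92% of all genes tested) were shared higher, none was shared lower, none was called, and the list's median change was 0.37. The shared members were the versican gene Vcan, the collagen V chains Col5a1 and Col5a2, the fibronectin gene Fn1, Sparc, the collagen crosslinking enzyme gene Lox and the procollagen processing enhancer gene Pcolce. On Vcan, a large chondroitin sulphate proteoglycan, the wild-type arrays read 10.13, 10.49 and 10.11, the knockout arrays 10.90 and 11.32 and the knockdown arrays 11.13 and 10.77 (0.79 ± 0.161 SE, adjusted p = 0.21). On Col5a2 the wild-type arrays read 8.64, 9.40 and 8.85, the knockout arrays 9.86 and 10.30 and the knockdown arrays 9.59 and 10.13 (1.01 ± 0.234 SE, adjusted p = 0.235). On its partner chain gene Col5a1, which lies on chromosome 2, the wild-type arrays read 8.16, 8.99 and 8.40, the knockout arrays 9.49 and 9.50 and the knockdown arrays 9.07 and 9.17 (0.79 ± 0.197 SE, adjusted p = 0.254). The collagen V chains join collagen I fibrils and limit their width, and both were higher on all 4 deficient arrays.

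On Sparc, which encodes a collagen-binding matricellular protein, the wild-type arrays read 10.90, 11.54 and 11.08, the knockout arrays 11.69 and 11.88 and the knockdown arrays 11.78 and 11.88 (0.63 ± 0.16 SE, adjusted p = 0.258). On Fn1 the wild-type arrays read 11.64, 12.21 and 11.89, the knockout arrays 12.43 and 12.49 and the knockdown arrays 12.22 and 12.32 (0.45 ± 0.138 SE, adjusted p = 0.304), and the groups were parted by 0.0099. On Lox the wild-type arrays read 9.59, 11.48 and 11.11, the knockout arrays 11.61 and 11.49 and the knockdown arrays 11.68 and 11.78 (0.91 ± 0.445 SE, adjusted p = 0.468). Wild-type array 1 was the lowest of the 7 arrays for Lox, Fn1, Sparc and both collagen V chains, and wild-type array 2 was the highest wild-type array for each of them. Without wild-type array 2 the count of shared higher matrix genes was 15 in place of 7, and without knockdown array 1 it was 11. Shared higher genes over all genes tested rose from 490 to 910 and 673 in these settings, since fewer arrays had to separate. The largest change in the list, that of Efemp1, came from the knockout arrays alone (4.28 in knockout and 0.26 in knockdown), and it was not shared.

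Of 28 tested matrix proteases and inhibitors, 3 (10.7%, against 2.92% of all genes tested) were shared higher and none lower. The median change was 0.15 and no member was called. On Mmp14, which encodes the membrane-bound collagenase that activates MMP2, the wild-type arrays read 10.89, 10.93 and 10.68, the knockout arrays 11.71 and 11.13 and the knockdown arrays 11.04 and 11.31 (0.46 ± 0.162 SE, adjusted p = 0.35). On Adamts4, an enzyme that cuts versican and aggrecan, the wild-type arrays read 6.15, 6.20 and 6.44, the knockout arrays 6.54 and 6.96 and the knockdown arrays 6.91 and 7.21 (0.64 ± 0.143 SE, adjusted p = 0.221). Mmp28 stood at 0.26 in knockout and 0.29 in knockdown, with its groups 0.0096 apart. Of 21 basement membrane genes only the laminin chain gene Lamc1 was shared (4.76%), at 0.45 ± 0.169 SE, adjusted p = 0.373. Of 34 integrin and focal adhesion genes Ddr2, a collagen receptor, was shared higher (0.30 ± 0.0942 SE, adjusted p = 0.305) and Itgb8, the integrin subunit that releases latent TGF-beta, was shared lower (-0.40 ± 0.115 SE, adjusted p = 0.281), near the background of 2.92% and 2.51%. All Itgb8 values lay below the array medians of 5.38 to 5.49. None of 28 contractile genes and none of 23 YAP and TEAD targets was shared, and their members with the smallest p, Fhl1 and Ankrd1, had their larger difference in knockdown. Their differences from wild type were 0.38 in knockout and -2.96 in knockdown for Fhl1, and -0.34 in knockout and -2.32 in knockdown for Ankrd1.

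**Figure D2:**
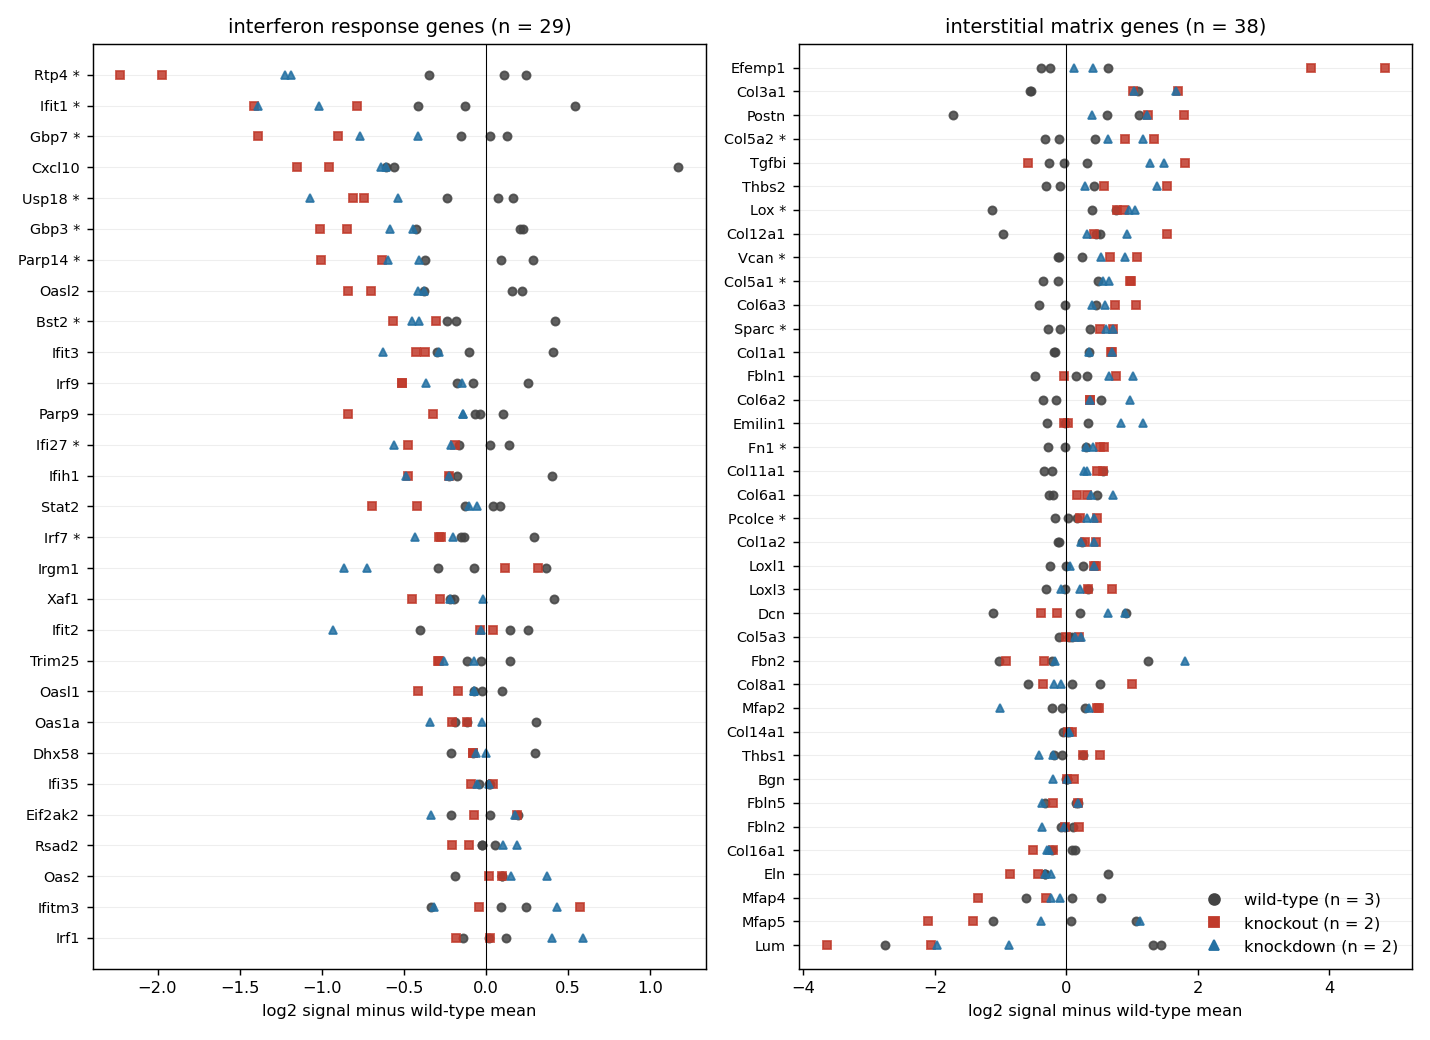
Log2 signal minus the wild-type mean on each array (horizontal axis) for the tested interferon response genes (left, n = 29) and interstitial matrix genes (right, n = 38), ordered by the deficient change; circles are wild-type, squares knockout and triangles knockdown arrays, and an asterisk marks a shared gene. Of the interferon genes 26 of 29 have a mean change below 0 and 9 are shared lower; of the matrix genes 30 of 38 have a mean change above 0 and 7 are shared higher.

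Of 29 tested genes of the TGF-beta and BMP pathway, 5 (17.2%, against 2.92% of all genes tested) were shared higher, none was shared lower and none was called. Of the 29, 18 had a change above 0 and 11 below, with a median change of 0.08. They lie at several levels of the pathway. On Fst, which encodes follistatin, a secreted trap for activins and some BMPs, the wild-type arrays read 6.35, 8.12 and 8.77, the knockout arrays 9.92 and 10.52 and the knockdown arrays 8.98 and 9.07. Fst had the largest change of the shared higher genes (1.87 ± 0.568 SE, adjusted p = 0.302), but the wild-type arrays alone spanned 6.35 to 8.77. The latent TGF-beta binding protein gene Ltbp3 stood at 0.51 in knockout and 0.58 in knockdown. The type I receptor gene Acvr1 stood at 0.49 in knockout and 0.52 in knockdown. Of the signal transducers, Smad3 stood at 0.39 in knockout and 0.26 in knockdown and Smad5 at 0.18 in knockout and 0.13 in knockdown. Acvr2a, a type II activin receptor on chromosome 2 that was not on the list, was shared higher too: the wild-type arrays read 7.44, 7.74 and 7.78, the knockout arrays 8.92 and 8.70 and the knockdown arrays 8.25 and 9.03 (1.07 ± 0.203 SE, adjusted p = 0.204).

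Of 42 Wnt genes tested, 32 had a change above 0 and 10 below, and 3 were shared. Dkk2 encodes a secreted modulator that binds the Wnt co-receptors LRP5 and LRP6. On Dkk2 (probe set 10496125, chromosome 3) the wild-type arrays read 6.63, 6.45 and 6.43, the knockout arrays 5.67 and 5.30 and the knockdown arrays 5.30 and 5.25. The deficient arrays lay at least 0.759 below wild type (-1.12 ± 0.108 SE, adjusted p = 0.0876), with changes of -1.02 in knockout and -1.23 in knockdown. The frizzled receptor gene Fzd2 stood higher: the wild-type arrays read 7.93, 8.02 and 7.92, the knockout arrays 8.38 and 8.23 and the knockdown arrays 8.60 and 8.68 (0.51 ± 0.0683 SE, adjusted p = 0.134), and its knockdown arrays were above its knockout arrays. The co-receptor gene Lrp5 was also shared higher (0.59 ± 0.208 SE, adjusted p = 0.353). These were 2 shared higher (4.76%) and 1 shared lower (2.38%) of the 42, against 2.92% and 2.51% of all genes tested, with a median change of 0.09. Dkk1, the sister inhibitor of Dkk2, was not shared: the wild-type arrays read 5.21, 5.02 and 5.30, the knockout arrays 5.26 and 5.19 and the knockdown arrays 5.21 and 5.21 (0.04 ± 0.0833 SE, adjusted p = 0.876). All Dkk1 values lay below the array medians of 5.38 to 5.49, so a contrast with Dkk2 cannot be drawn from them. The Dkk2 values of knockout array 2 and of both knockdown arrays also lay below the medians.

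Growth factor genes held 2 shared higher members of 36 tested (5.56%, against 2.92% of all genes tested). On Pdgfrb, the receptor through which PDGF drives fibroblast and pericyte growth, the wild-type arrays read 9.42, 10.24 and 10.48, the knockout arrays 10.51 and 10.63 and the knockdown arrays 11.16 and 10.93 (0.76 ± 0.258 SE, adjusted p = 0.34), with a gap of 0.0239. Bdnf, a neurotrophin gene on chromosome 2, stood at 0.37 in knockout and 0.24 in knockdown. Among pericyte markers Notch3 was shared higher beside Pdgfrb, 2 of 8, and the list's mean signal was 6.10 to 6.25 on the wild-type arrays and 6.11 to 6.53 on the deficient arrays; its part in the Pdgfrb values was not tested. Growth hormone receptor Ghr, on chromosome 15, was among the larger shared genes outside the lists: the wild-type arrays read 8.48, 9.27 and 9.20, the knockout arrays 10.34 and 10.26 and the knockdown arrays 9.84 and 9.92 (1.11 ± 0.202 SE, adjusted p = 0.199).

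Other large shared higher genes lay outside the lists. On Abi3bp, an extracellular matrix protein gene, the wild-type arrays read 5.20, 6.35 and 5.83, the knockout arrays 7.24 and 8.98 and the knockdown arrays 6.56 and 7.61 (1.81 ± 0.515 SE, adjusted p = 0.281). Lgals9 encodes galectin-9, a secreted sugar-binding protein, and the wild-type arrays read 7.14, 7.54 and 7.55, the knockout arrays 10.16 and 9.41 and the knockdown arrays 8.18 and 9.03 (1.78 ± 0.274 SE, adjusted p = 0.159); its knockdown change was only 0.501 of its knockout change. On Islr, which encodes an immunoglobulin-domain protein of mesenchymal cells, the wild-type arrays read 5.50, 7.07 and 6.48, the knockout arrays 7.36 and 7.74 and the knockdown arrays 7.66 and 8.66 (1.50 ± 0.423 SE, adjusted p = 0.276). The intracellular serpins Serpinb8 (1.54 ± 0.351 SE, adjusted p = 0.227) and Serpinb9, the granzyme B inhibitor (1.23 ± 0.348 SE, adjusted p = 0.279), were also in this group. On Heg1, a transmembrane receptor gene, the wild-type arrays read 7.75, 8.58 and 7.87, the knockout arrays 9.34 and 9.56 and the knockdown arrays 8.89 and 9.02 (1.14 ± 0.211 SE, adjusted p = 0.204). Selenop, a secreted selenium carrier on chromosome 15, stood at 1.83 in knockout and 1.14 in knockdown, and Plxnd1, a semaphorin receptor, at 1.10 in knockout and 1.01 in knockdown.

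Interferon response genes were the list with the highest share of shared lower genes: 9 of 29 tested (31%, against 2.51% of all genes tested) were shared lower. None was shared higher, none was called, 26 of 29 had a change below 0, and the median change was -0.32. The shared members were Rtp4, Ifit1, Gbp7, Usp18, Gbp3, Parp14, Bst2, Ifi27 and Irf7, a set known to be induced by interferons through STAT and IRF factors. Rtp4, which encodes a receptor transporter protein that is strongly interferon induced, gave the widest gap. On Rtp4 (probe set 10434778, chromosome 16) the wild-type arrays read 7.12, 6.66 and 7.25, the knockout arrays 4.79 and 5.04 and the knockdown arrays 5.79 and 5.82. The deficient arrays lay at least 0.838 below wild type (-1.65 ± 0.156 SE, adjusted p = 0.0876), and the knockout arrays lay below the knockdown arrays. On Ifit1, which encodes a protein that binds foreign RNA caps, the wild-type arrays read 6.22, 5.26 and 5.55, the knockout arrays 4.26 and 4.89 and the knockdown arrays 4.66 and 4.29 (-1.15 ± 0.274 SE, adjusted p = 0.242). On Usp18, which removes the ubiquitin-like ISG15 and dampens the interferon receptor, the wild-type arrays read 6.19, 5.79 and 6.10, the knockout arrays 5.28 and 5.22 and the knockdown arrays 5.49 and 4.95 (-0.79 ± 0.159 SE, adjusted p = 0.206), with nearly equal changes of -0.78 in knockout and -0.81 in knockdown.

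The guanylate-binding proteins are interferon-induced GTPases that act on intracellular microbes. On Gbp7 the wild-type arrays read 5.73, 5.56 and 5.84, the knockout arrays 4.32 and 4.81 and the knockdown arrays 5.30 and 4.95 (-0.87 ± 0.155 SE, adjusted p = 0.191). On its neighbour Gbp3 the wild-type arrays read 6.02, 5.36 and 6.00, the knockout arrays 4.78 and 4.95 and the knockdown arrays 5.34 and 5.21 (-0.72 ± 0.178 SE, adjusted p = 0.253), where knockdown array 1 lay just under wild-type array 2; the genes of this family resemble each other in sequence, and probe signal could be shared between them. On Bst2, which encodes tetherin, a protein that holds virus particles at the cell surface, the wild-type arrays read 7.22, 7.17 and 7.83, the knockout arrays 7.10 and 6.84 and the knockdown arrays 7.0 and 6.96 (-0.43 ± 0.178 SE, adjusted p = 0.409). Irf7, a transcription factor that amplifies interferon production, stood at -0.28 in knockout and -0.32 in knockdown, Parp14 at -0.82 in knockout and -0.50 in knockdown and Ifi27 at -0.33 in knockout and -0.39 in knockdown. The deficient arrays of Ifit1, Gbp7, Gbp3, Irf7 and Usp18 all read below the median of their own array, and these medians were 5.38 to 5.49. For Usp18 this was narrow on knockdown array 1, at 5.487 against 5.489. Of 17 MHC class I presentation genes, which interferon also induces, none was shared and the median change was -0.02; the member of smallest p, Cd1d1, had its larger difference in knockout (-1.33 in knockout and 0.12 in knockdown). Under a size rule of 0.667, 5 interferon genes were shared lower in place of 9, and all shared lower genes fell from 422 to 286.

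Promoter sequence was available from RefSeq for 13207 of the genes tested, as 250 bases before to 50 bases after the start, and for 5 of the 9 shared interferon genes. The letters GAAANNGAA, the core of the element bound by interferon-activated factors, were searched on both strands. They stood in 7.05% of all 13207 promoters, in 6.01% of 333 promoters of shared lower genes, and in 6.63% of 392 promoters of shared higher genes. They stood in 14 of 22 promoters of the tested interferon list and in 4 of the 5 of its shared members, Irf7 being the exception. Shared lower genes as a whole thus held the element about as often as all genes did. The 150 bases upstream of the start of these 4 genes are shown because their signals lay lower together. They are from GRCm38.p6, written 5′ to 3′ on the strand of the gene, and capitals mark each match to the element on either strand, where overlapping matches run into each other.
Ifit1, chr19:34640739-34640888, plus strand: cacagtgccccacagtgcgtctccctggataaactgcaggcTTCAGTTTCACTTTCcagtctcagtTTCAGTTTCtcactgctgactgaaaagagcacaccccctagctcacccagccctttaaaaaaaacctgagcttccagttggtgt
Gbp3, chr3:142559894-142560043, plus strand: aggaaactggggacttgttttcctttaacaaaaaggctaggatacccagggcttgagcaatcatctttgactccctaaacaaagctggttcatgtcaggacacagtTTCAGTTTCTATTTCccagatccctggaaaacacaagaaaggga
Gbp7, chr3:142530186-142530335, plus strand: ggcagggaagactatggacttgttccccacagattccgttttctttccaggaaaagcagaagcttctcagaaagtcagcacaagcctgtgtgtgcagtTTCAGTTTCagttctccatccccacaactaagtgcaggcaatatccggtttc
Bst2, chr8:71537473-71537622, minus strand: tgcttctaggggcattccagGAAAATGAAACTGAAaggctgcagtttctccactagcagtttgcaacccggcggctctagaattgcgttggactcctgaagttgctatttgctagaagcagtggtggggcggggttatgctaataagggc
Ifit1 held 3 matches, Gbp3 and Bst2 held 2 each and Gbp7 held 1. A match describes the letters and was not tested for binding. Of the other motifs searched in the same windows on both strands, the TATA box letters TATAAA stood in 9.31% of shared lower and 5.1% of shared higher promoters, against 9.15% of all. The E-box letters CACGTG stood in 12.3% and 10.2% against 9.27% of all, the AP-1 letters TGANTCA in 5.11% and 4.08% against 5.8%, and the CCAAT letters in 35.7% and 41.3% against 37.9%. The letters TTTGAA of the cell-cycle homology region stood in 14.4% of shared lower and 7.65% of shared higher promoters against 12.7% of all, and the TEAD letters GGAATG in 9.91% and 11.7% against 12.6%. The cyclic AMP element TGACGTCA stood in 2.7% and 2.55% against 2.82%, and the sterol element TCACCCCAC in 0.3% and 0.765% against 0.583%.

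The largest changes among shared lower genes after Tnc varied widely between clones. On Gap43, a growth cone protein gene, the wild-type arrays read 10.90, 9.90 and 10.16, the knockout arrays 5.82 and 6.21 and the knockdown arrays 9.47 and 5.73 (-3.51 ± 0.858 SE, adjusted p = 0.249), so that knockdown array 1 stood close to wild type and the other 3 deficient arrays far below. On Slc6a15, which encodes a neutral amino acid transporter, the wild-type arrays read 7.87, 6.90 and 6.55, the knockout arrays 3.77 and 3.79 and the knockdown arrays 4.87 and 3.48 (-3.13 ± 0.432 SE, adjusted p = 0.136), and here all 4 deficient arrays lay at least 1.67 below the lowest wild-type array. Its knockout arrays and knockdown array 2 read below the 25th percentiles of the arrays, which were 3.98 to 4.05. On Dynap the wild-type arrays read 10.17, 9.24 and 6.46, the knockout arrays 5.49 and 5.15 and the knockdown arrays 5.68 and 6.12 (-3.01 ± 0.858 SE, adjusted p = 0.281), with a wild-type range wider than the gap to the deficient arrays. On Sim1, a bHLH-PAS transcription factor gene of the hypothalamus and kidney, the wild-type arrays read 8.69, 8.11 and 7.78, the knockout arrays 7.27 and 5.11 and the knockdown arrays 4.93 and 7.70 (-1.94 ± 0.798 SE, adjusted p = 0.408). On Sox2, a stem and neural progenitor factor, wild-type array 1 read 7.50 and the other wild-type arrays 5.53 and 5.02, against 4.80 to 4.93 in the deficient cells. Sox2 was the only one of 8 neural and glial markers that was shared, and that list's mean signal was 6.01 to 6.28 on the wild-type arrays and 5.92 to 6.28 on the deficient arrays.

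Further down, Pi15, a secreted protease inhibitor gene, read 6.10, 5.91 and 5.67 in wild type, 4.28 and 3.91 in knockout and 5.17 and 4.27 in knockdown (-1.49 ± 0.239 SE, adjusted p = 0.171). On Wasf3, which encodes an activator of actin branching, the wild-type arrays read 7.18, 6.76 and 6.67, the knockout arrays 5.08 and 6.05 and the knockdown arrays 5.92 and 4.94 (-1.37 ± 0.33 SE, adjusted p = 0.248). On Lrrc15, a membrane protein gene of activated fibroblasts, the wild-type arrays read 6.64, 7.35 and 6.96, the knockout arrays 5.84 and 5.43 and the knockdown arrays 6.48 and 5.34 (-1.21 ± 0.313 SE, adjusted p = 0.26). On Ppbp, which encodes a platelet-type chemokine, the wild-type arrays read 7.40, 6.97 and 6.82, the knockout arrays 5.21 and 6.57 and the knockdown arrays 5.18 and 6.13 (-1.29 ± 0.391 SE, adjusted p = 0.302). The AP-1 subunit gene Jun, on chromosome 4, had a smaller but tighter difference: the wild-type arrays read 9.82, 9.85 and 9.62, the knockout arrays 9.14 and 9.27 and the knockdown arrays 8.96 and 9.12 (-0.64 ± 0.0886 SE, adjusted p = 0.136), and its deficient arrays lay at least 0.35 below wild type. Of 27 cytokine and NF-kB genes, Il11 (-0.48 ± 0.152 SE, adjusted p = 0.314) and Tslp (-0.37 ± 0.141 SE, adjusted p = 0.382) were shared lower and none higher. This was 7.41% of the list, against 2.51% of all genes tested. Every Tslp value lay below the array medians of 5.38 to 5.49. Il11 encodes a cytokine that fibroblasts make under TGF-beta.

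Further shared lower genes of small p belong to none of the lists. The RNA helicase gene Ddx21, which acts in ribosomal RNA synthesis, showed tight groups: the wild-type arrays read 10.87, 10.74 and 10.78, the knockout arrays 10.36 and 10.32 and the knockdown arrays 10.18 and 10.09 (-0.56 ± 0.0638 SE, adjusted p = 0.106). Pwp2, a component of the small-subunit processome, stood at -0.45 in knockout and -0.39 in knockdown, Nhp2, a protein of H/ACA small nucleolar ribonucleoproteins, at -0.27 in knockout and -0.49 in knockdown, and the splicing factor gene Srsf4 at -0.36 in knockout and -0.68 in knockdown. Rcc1, the exchange factor for Ran, read 8.74, 8.87 and 8.63 in wild type, 8.30 and 8.28 in knockout and 7.96 and 8.19 in knockdown (-0.56 ± 0.0895 SE, adjusted p = 0.167). Plaa stood at -0.49 in knockout and -0.89 in knockdown. Slc17a6 stood at -0.72 in knockout and -0.44 in knockdown, and Pogk at -0.91 in knockout and -0.53 in knockdown. All Slc17a6 values lay below the array medians of 5.38 to 5.49. The ribosome assembly genes Fbl, Ncl and Nop56 were not shared: fibrillarin (Fbl) had a change of -0.31 with overlapping arrays, nucleolin (Ncl) of -0.15 and Nop56 of 0.13. Fbl, Ncl and Nop56 were chosen after their values were seen.

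Small nucleolar RNA genes, which guide modification of ribosomal RNA, mostly stood lower in the deficient cells: of 51 tested, 46 had a change below 0, with a median of -0.21. Of these, 8 (15.7% of the class, against 2.51% of all genes tested) were shared lower and none was shared higher. The class was chosen after its values were seen, and the 8 are not all separate loci: Snord35a and Snord35b are neighbours on chromosome 7, Snord95 and Snord96a are neighbours on chromosome 11, and DQ267102 lies near the imprinted microRNA cluster of chromosome 12. On Snora52 the wild-type arrays read 8.98, 8.62 and 8.73, the knockout arrays 8.08 and 8.29 and the knockdown arrays 8.15 and 8.25 (-0.59 ± 0.111 SE, adjusted p = 0.204). On Snora3 the wild-type arrays read 7.99, 7.83 and 7.93, the knockout arrays 7.55 and 7.56 and the knockdown arrays 7.61 and 7.60 (-0.34 ± 0.0629 SE, adjusted p = 0.204). On Snord35a the wild-type arrays read 5.93, 5.94 and 5.92, the knockout arrays 5.56 and 5.64 and the knockdown arrays 5.69 and 5.57 (-0.31 ± 0.0603 SE, adjusted p = 0.206), and the wild-type arrays of this gene spanned only 5.92 to 5.94. Probe sets of such short genes do not part the mature RNA from its host transcript. The count was 16 without knockout array 1, 14 without wild-type array 1 and 13 without wild-type array 3. Shared lower genes over all genes tested rose from 422 to 712, 581 and 794 in these settings, since fewer arrays had to separate.

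Of 37 DNA replication and repair genes, 30 had a change below 0, and the median change was -0.18. Of the 37, 3 (8.11%, against 2.51% of all genes tested) were shared lower and none higher. The ribonucleotide reductase subunit gene Rrm1 stood at -0.27 ± 0.0786 SE, adjusted p = 0.295, the primase gene Prim1 at -0.52 ± 0.183 SE, adjusted p = 0.353 and the clamp loader gene Rfc1 at -0.41 ± 0.192 SE, adjusted p = 0.457. Of 42 cell cycle genes, 27 had a change below 0 (median -0.11), but the only shared member, the spindle factor gene Tpx2 on chromosome 2, was higher (0.24 ± 0.0815 SE, adjusted p = 0.341). The p53 target list had a median change of 0.38 with 18 of 23 above 0, and yet only Gtse1, on chromosome 15, was shared higher (0.70 ± 0.187 SE, adjusted p = 0.264) and Sesn1 shared lower (-0.26 ± 0.127 SE, adjusted p = 0.468). The replication-dependent histone gene H3c15 had the smallest p of the shared higher genes: the wild-type arrays read 5.11, 4.95 and 5.03, the knockout arrays 5.89 and 5.79 and the knockdown arrays 5.52 and 5.52 (0.65 ± 0.0666 SE, adjusted p = 0.0876); histone genes of this family are nearly identical and may share probe signal.

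Lipid, lysosome and redox genes appeared among the shared higher genes. On Npc2, which carries cholesterol out of lysosomes, the wild-type arrays read 8.77, 9.02 and 8.96, the knockout arrays 9.40 and 9.60 and the knockdown arrays 9.69 and 9.79 (0.70 ± 0.0909 SE, adjusted p = 0.128), and the knockdown arrays were above the knockout arrays. The lysosomal protective protein gene Ctsa, on chromosome 2, stood at 0.36 ± 0.0687 SE, adjusted p = 0.206, and the arylsulfatase A gene Arsa, on chromosome 15, at 0.92 ± 0.127 SE, adjusted p = 0.136. In the cholesterol synthesis list 18 of 22 genes had a change above 0, with a median of 0.11. It held 3 shared higher members (13.6%, against 2.92% of all genes tested). These were the master regulator gene Srebf2 on chromosome 15 (0.42 ± 0.0895 SE, adjusted p = 0.214), Hmgcs1 (0.34 ± 0.111 SE, adjusted p = 0.332) and Fdft1 (0.19 ± 0.0745 SE, adjusted p = 0.389). Of 29 NRF2 target genes, with a median change of 0.05, 4 (13.8%, against 2.92% of all genes tested) were shared higher. They were the regulator gene Nfe2l2 itself on chromosome 2 (0.42 ± 0.145 SE, adjusted p = 0.343), the glutathione transferase genes Gstm1 (0.96 ± 0.31 SE, adjusted p = 0.323) and Gstm2 (0.50 ± 0.241 SE, adjusted p = 0.466), which resemble each other in sequence, and the ferritin gene Fth1 (0.19 ± 0.071 SE, adjusted p = 0.364).

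On Gstm1 the wild-type arrays read 7.77, 8.40 and 7.78, the knockout arrays 9.36 and 8.47 and the knockdown arrays 8.56 and 9.36, so the arrays of each deficient group were nearly a log2 unit apart. On Tspo, the outer mitochondrial membrane protein gene on chromosome 15, the wild-type arrays read 8.90, 9.28 and 9.06, the knockout arrays 10.12 and 10.05 and the knockdown arrays 9.66 and 9.76 (0.82 ± 0.103 SE, adjusted p = 0.114). On Agpat2, which makes phosphatidic acid and lies on chromosome 2, the wild-type arrays read 7.40, 7.55 and 7.48, the knockout arrays 7.98 and 8.11 and the knockdown arrays 8.05 and 8.13 (0.59 ± 0.0712 SE, adjusted p = 0.106), with nearly equal changes of 0.57 in knockout and 0.61 in knockdown. Each of the remaining lists held at most 2 shared genes in either direction. Over all genes tested the shares were 2.92% higher and 2.51% lower. Of 30 oxidative phosphorylation genes Atp5c1 was shared higher (3.33%), and of 30 hypoxia and glycolysis genes Bnip3l was shared higher and Hk1 lower. Of 33 cilium genes Ift27 and Kif3b were shared higher (6.06%) and Ift74 and Ofd1 lower (6.06%). Of 31 lysosome and autophagy genes Ulk1 was shared lower (3.23%) and Npc2 and Ctsa shared higher (6.45%), and of 37 Hox genes Hoxd4 was shared higher. Of 28 protein kinase A genes and 28 unfolded protein and amino acid stress genes none was shared; their members of smallest p, Adcy6 (0.98 in knockout and 0.25 in knockdown) and Atf4 (0.98 in knockout and 0.29 in knockdown), lie on chromosome 15. Of 23 genes for tenascins, their receptors and partners, Vcan and Fn1 were shared higher (8.7%) and Tnc and the integrin subunit gene Itga7 shared lower (8.7%), and the median change was 0.02.

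The shared genes were unevenly spread over chromosomes. On chromosome 15, 103 of 693 tested genes (14.9%) were shared higher and 2 were shared lower, and on chromosome 2, 107 of 1335 (8.01%) were shared higher and 2 lower. Together these chromosomes held 210 of the 490 shared higher genes (42.9%) and 12.1% of the genes tested. Without them, 280 of 14773 genes (1.9%) were shared higher and 418 (2.83%) lower. Chromosomes 13 (5.55%), 12 (5.08%) and 19 (4.61%) came next for shared higher genes. The shared lower genes were most frequent on chromosomes X (31 of 518, 5.98%), 4 (57 of 1040, 5.48%) and 10 (43 of 796, 5.4%). The chromosomes were picked for description after these shares were seen.

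**Figure D3:**
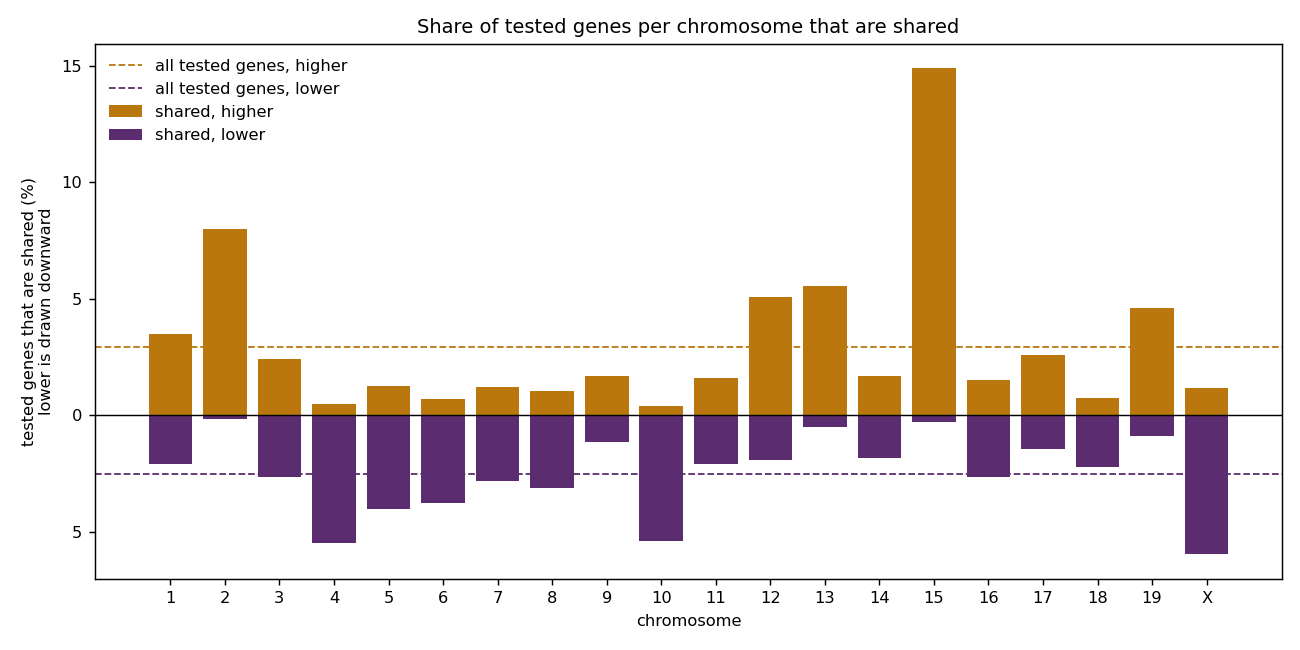
Percent of the tested genes of each chromosome that were shared higher (upward bars) or shared lower (downward bars) in the deficient cells; dashed lines mark the same percent over all genes tested, 2.92 and 2.51. Chromosome 15 reaches 14.9% and chromosome 2 reaches 8.01% upward, with under 1% downward.

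On chromosome 15 the excess was spread along the chromosome. With its tested genes cut into 10 bins in map order, 5 to 17 of the 69 or 70 genes of a bin were shared higher, and the median change of every bin was above 0 in both knockout (0.08 to 0.40) and knockdown (0.07 to 0.17). Over all its genes 81.5% had a change above 0. Over the 303 genes with a mean log2 signal above 7 the median change was 0.34, made up of 0.48 in knockout and 0.20 in knockdown. Taken array by array over those genes as the median distance from the mean of the 3 group means, the wild-type arrays read -0.20, -0.16 and -0.29, the knockout arrays 0.15 and 0.36, and the knockdown arrays -0.09 and 0.06. The knockdown arrays lay above wild type and below knockout. Without knockdown array 1 the count of shared higher genes on chromosome 15 was 158, while over all genes tested it rose from 490 to 673.

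Of the 15 shared higher genes of smallest p, 8 lie on chromosome 15. They include Lima1, an actin bundling protein gene (0.65 in knockout and 0.33 in knockdown), Tnrc6b, a component of microRNA silencing (0.63 in knockout and 0.44 in knockdown), Ano6, a calcium-activated phospholipid scramblase (0.82 in knockout and 0.41 in knockdown), and Sun2, a protein of the inner nuclear membrane that links to the cytoskeleton (0.66 in knockout and 0.54 in knockdown). Others are Sh3bp1, a GTPase activator for Rac (0.57 in knockout and 0.35 in knockdown), and Zfp647 (0.74 in knockout and 0.45 in knockdown), beside Tspo and Arsa above. The changes of these 8 genes were 0.46 to 0.92. They were picked as shared and of smallest p, so their sizes cannot be set against the chromosome's median. Among the 15, Ttc28 on chromosome 5 stood at 0.78 in knockout and 0.56 in knockdown. Rcor2 on chromosome 19 stood at 0.41 in knockout and 0.48 in knockdown. Of the 19 shared higher genes with a change of at least 1, 4 lie on chromosomes 2 or 15, which held 12.1% of the genes tested.

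Chromosome 2 differed in that its median change over all tested genes was 0.17 in knockdown and 0.03 in knockout. Over its 586 genes with a signal above 7 the array medians were -0.21, -0.06 and -0.07 in wild type, -0.07 and 0.04 in knockout, and 0.07 and 0.20 in knockdown, so that wild-type and knockout arrays overlapped. Leaving out knockout array 1 gave 191 shared higher genes there, leaving out wild-type array 3 gave 184 and leaving out wild-type array 2 gave 175, in place of 107. Shared higher genes over all chromosomes rose from 490 to 709, 852 and 910 in these settings, since fewer arrays had to separate. On chromosome 4, which carries Tnc, the array medians were 0.25, 0.20 and 0.03 in wild type, 0.11 and 0.01 in knockout, and -0.28 and -0.18 in knockdown. The count of 57 shared lower genes there was 136 without knockout array 1 and 125 without wild-type array 3, and it was 95 after quantile normalization and 36 with arrays centred on their medians. Over all chromosomes the shared lower count went from 422 to 712, 794, 553 and 372 in these settings. On chromosome X the array medians were 0.09, 0.07 and 0.10 in wild type, 0.01 and 0.05 in knockout, and 0.03 and -0.25 in knockdown. The gap was narrow there, and only knockdown array 2 lay far from wild type.

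**Figure D4:**
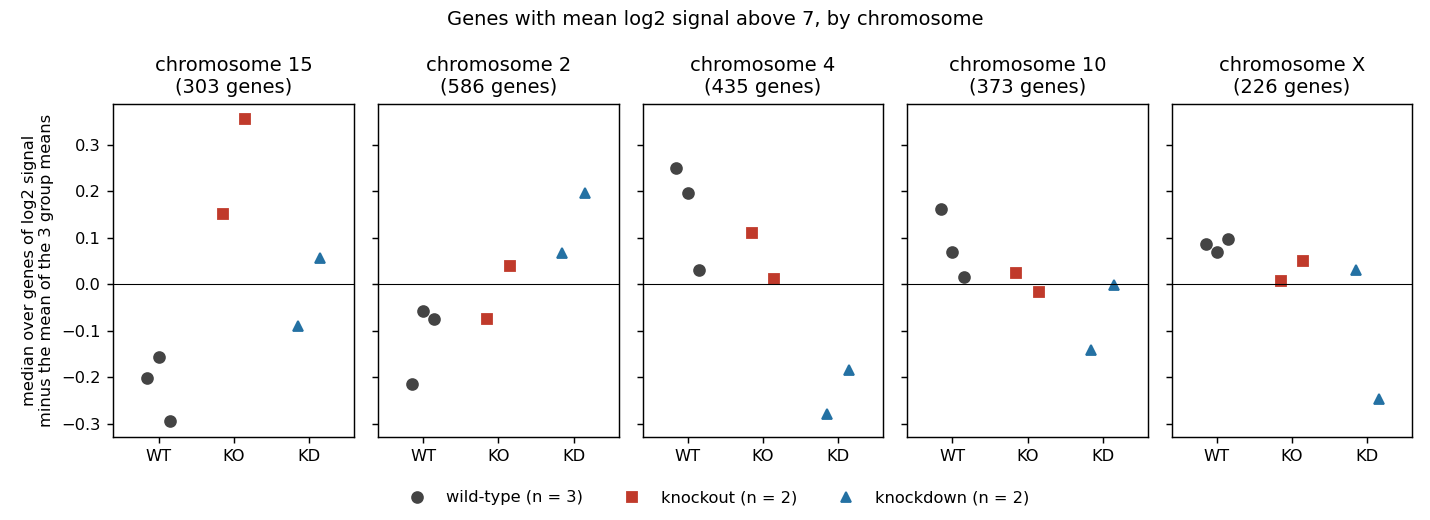
Median over genes with mean log2 signal above 7 of the log2 signal minus the mean of the 3 group means, for chromosomes 15, 2, 4, 10 and X; each symbol is 1 array (circles wild-type, squares knockout, triangles knockdown). Wild-type and deficient arrays do not overlap on chromosomes 15 and X, and they overlap on chromosomes 2, 4 and 10. On X the gap is narrow, from 0.05 on knockout array 2 to 0.07 on wild-type array 2.

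MicroRNA genes of the imprinted chromosome 12 cluster that runs from Mir379 to Mir410 mostly stood lower in the deficient cells. The maternal chromosome expresses this cluster together with the long noncoding RNAs Meg3 and Rian. RefSeq lists 36 microRNA genes between 109709060 and 109743715 on chromosome 12 of GRCm38.p6, of which 29 were on the array and 17 were tested. All 17 had a change below 0 over both deficient groups together, while in knockdown alone Mir667 (0.10), Mir494 (0.05) and Mir668 (0.01) stood above wild type. Of the 17, 4 (23.5%, against 2.51% of all genes tested) were shared lower, none was called, and the median change was -0.35. Of 114 other microRNA genes tested and matched to RefSeq sequences, 72 had a change below 0 and 2 (1.75%) were shared lower, Mir130b and Mir680-2. The cluster was chosen after its values were seen. The mature sequences of its 4 shared members are shown to identify what the probe sets are annotated to, 5′ to 3′, with the seed (bases 2 to 8, which pair with target messages) in capitals.
mmu-miR-300-5p: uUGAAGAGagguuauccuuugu
mmu-miR-300-3p: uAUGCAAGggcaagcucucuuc
mmu-miR-377-5p: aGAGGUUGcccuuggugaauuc
mmu-miR-377-3p: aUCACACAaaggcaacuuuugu
mmu-miR-380-5p: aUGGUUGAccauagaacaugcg
mmu-miR-380-3p: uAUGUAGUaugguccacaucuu
mmu-miR-382-5p: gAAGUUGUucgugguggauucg
mmu-miR-382-3p: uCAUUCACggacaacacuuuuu
The 8 mature forms carry 8 different seeds, so no seed is common to these members. The arrays do not part mature microRNA from hairpin or host transcript.

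On Mir382 the wild-type arrays read 6.16, 6.91 and 5.75, the knockout arrays 4.58 and 5.42 and the knockdown arrays 5.55 and 4.98 (-1.14 ± 0.346 SE, adjusted p = 0.302). On Mir380 the wild-type arrays read 4.35, 4.77 and 4.20, the knockout arrays 3.89 and 3.90 and the knockdown arrays 4.03 and 3.29 (-0.67 ± 0.214 SE, adjusted p = 0.322). On Mir377 the wild-type arrays read 5.41, 5.82 and 5.12, the knockout arrays 4.46 and 5.11 and the knockdown arrays 4.79 and 4.82 (-0.66 ± 0.218 SE, adjusted p = 0.335), and its groups were 0.0054 apart. On Mir300 the wild-type arrays read 5.15, 5.58 and 5.05, the knockout arrays 4.06 and 4.99 and the knockdown arrays 5.03 and 4.26 (-0.68 ± 0.297 SE, adjusted p = 0.431). In each of these 4 genes wild-type array 2 was the highest array. Over the 17 tested members the median distance from the gene's mean was 0.22, 0.54 and 0.10 on the wild-type arrays, -0.25 and -0.03 on the knockout arrays, and 0.04 and -0.01 on the knockdown arrays. The long noncoding RNAs Rian and Meg3 of the same imprinted region were also lower on average without being shared. On Rian the wild-type arrays read 6.73, 7.32 and 6.44, the knockout arrays 5.84 and 5.94 and the knockdown arrays 6.50 and 5.57 (-0.87 ± 0.29 SE, adjusted p = 0.336). On Meg3 the wild-type arrays read 9.56, 10.25 and 9.80, the knockout arrays 8.88 and 9.27 and the knockdown arrays 9.75 and 9.27 (-0.58 ± 0.212 SE, adjusted p = 0.364). Of the paternally expressed neighbours, Dlk1 ranged from 7.94 to 11.07 in wild type and from 5.89 to 10.38 in the deficient cells. Rtl1 stood at a difference of -0.10. The count of 4 was 7 without wild-type array 3 or without knockdown array 1, and 1 under the stricter filter on dim genes. Over all genes tested the shared lower count went from 422 to 794, 600 and 385 in these settings.

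**Figure D5:**
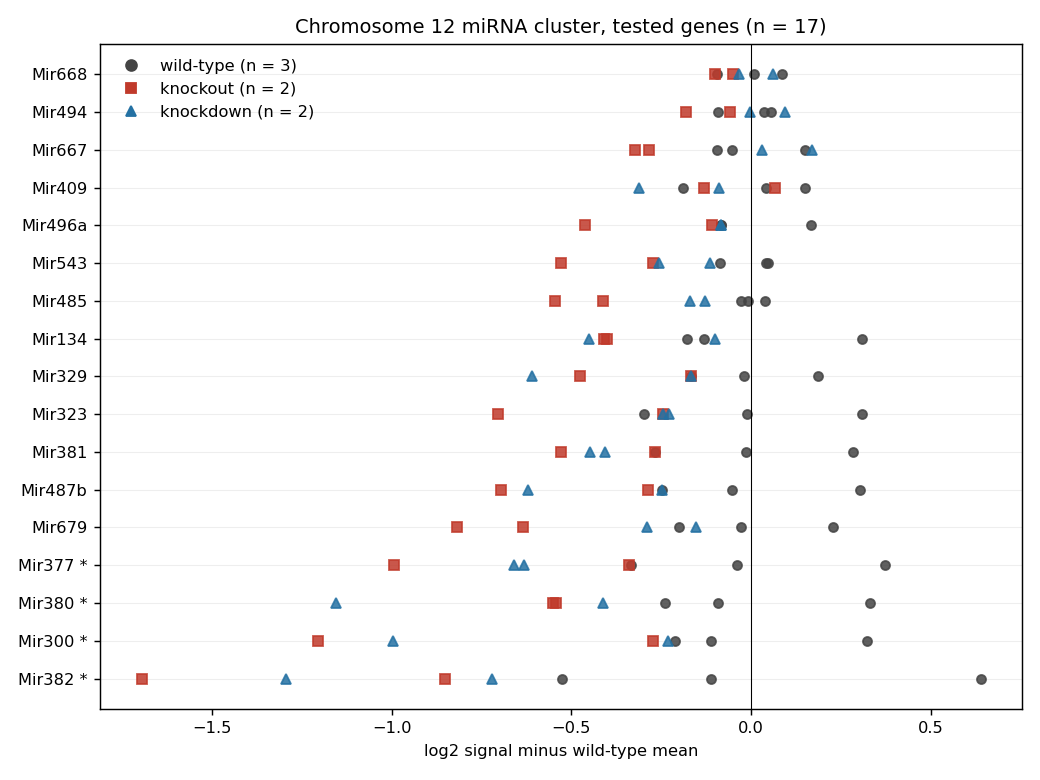
Log2 signal minus the wild-type mean on each array for the 17 tested microRNA genes of the chromosome 12 cluster, ordered by the deficient change; circles are wild-type, squares knockout and triangles knockdown arrays, and an asterisk marks the 4 shared lower genes. The arrays of most members overlap between groups, and the 4 shared members have changes of -1.14 to -0.66.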

How the data were processed

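RNA of 7 fibroblast clones was hybridised to Affymetrix whole-transcript arrays. The values are log2 signals as the authors deposited them in 1 table; their range, 1.81 to 13.7, shows the log2 scale. Per the submitters' processing notes R 2.8.0 and affy were used; how signals were summarised and normalized is not given in the sources used here. Array medians were 5.38 to 5.49. Arrays give no depth, so their number limits the precision.

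Of 34760 probe sets, 21640 had a single gene symbol in GEO's platform annotation, 1321 had several and 11799 were not listed. They covered 19937 genes; of the 954 with several probe sets, the one of highest mean was used. Genes above the array's 25th percentile on at least 2 arrays (16801) were tested. Chromosomes, gene identifiers and sequences came from RefSeq tables of GRCm38.p6 (21553 probe sets matched).

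With limma 3.58.1 (R 4.3.3), a mean per group was fitted over the 7 arrays (two-sided moderated test; 4 residual and 2.06 prior degrees of freedom), with Benjamini-Hochberg adjustment over all genes tested and a threshold of 0.05. The fit was tested on simulated data. Both deficient groups share the 3 wild-type arrays, so no likeness between their comparisons is reported beyond the rule's own count. Replicate numbers only name clones, and no label says that a number marks a shared animal, litter, batch or day, so arrays were not paired. Same-numbered arrays deviated from their group means with correlations of -0.07 to 0.20. These cannot decide on pairing, because the deviations of the 2 arrays of a deficient group mirror each other.

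The members, gene lists, marker lists, motifs and naming rule were chosen with earlier results of these data known. The genes named are Tnc, Plat and Dkk1, up to 15 shared genes each way (called genes by size, then by smallest p), up to 4 shared members of each list or its member of smallest p, called genes that were not shared, and genes at the limits of the rule. Genes named outside this rule, among them the largest changes, snoRNA and microRNA genes and imprinted neighbours, were chosen after their values were seen. Alternatives were filters, normalization, probe-set averaging, an intensity trend, array weights, a fit of only 2 groups, the replicate block, leaving out arrays, and other size rules.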

Additional observations from a re-analysis of the deposited data

Results flagged for a closer look

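The difference between knockout and knockdown, each against wild type, passed the test on 5 genes named here; none was shared, and no cause was tested. Grb10 stood 6.25 ± 0.246 SE higher in knockout than in knockdown (adjusted p = 0.00361, limma), higher on both knockout arrays than on either knockdown array. Hoxc6 stood 3.92 ± 0.208 SE higher in knockout (adjusted p = 0.00539, limma). Fhl1, a LIM-domain gene of muscle and mechanically loaded cells, stood 3.34 ± 0.199 SE higher in knockout (adjusted p = 0.0062, limma): the wild-type arrays read 10.43, 10.44 and 10.40, the knockout arrays 11.06 and 10.54 and the knockdown arrays 7.66 and 7.27. Grina stood 0.63 ± 0.0721 SE higher in knockout (adjusted p = 0.0464, limma), although all 4 of its deficient arrays lay above wild type. For Rpl39l the difference, knockout minus knockdown, was -3.82 ± 0.171 SE (adjusted p = 0.00361, limma).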

How the results depend on the processing

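Between 0 and 10 genes were called for deficient minus wild-type. There were 10 with the stricter filter, 8 with array weights and 3 without the genes of chromosomes 2 and 15 (an alternative chosen after seeing the data). There were 0 in a fit of only 2 groups, with the replicate block and without both arrays numbered 2 (unadjusted p under 0.05: 1407, 1786 and 2253 genes). Leaving out single arrays gave 0 to 5. Knockout minus knockdown gave 38 calls with no filter, 111 with the stricter filter, 100 after quantile normalization, and 137 with arrays centred on their median. It gave 26 with an intensity trend, 18 with array weights, 2 with the replicate block, 1 without both arrays numbered 2, and 0 to 103 without single arrays. Tnc lost its call in the fit of 2 groups (-3.62, adjusted p = 0.41), with the replicate block (-3.55, adjusted p = 0.288), without both arrays numbered 2 (-3.53, adjusted p = 0.307) and without any single array (-3.82 to -3.42). Shared genes numbered 593 under the 0.667 size rule and 1785 without both arrays numbered 2; without single arrays they numbered 1101 to 1704 (1704 without wild-type array 2, 1646 without wild-type array 3, 1421 without knockout array 1), since fewer arrays must separate. Over the 99 named genes other than Tnc, 1707 of 1749 values kept direction and side of the threshold, 38 lost a call and 3 gained one: Rtp4 (adjusted p = 0.0388) and Dkk2 (0.0433) with the stricter filter, and Dkk2 (0.0453) with array weights. The 38 losses were those of Grb10 (8 of 18 alternatives), Rpl39l (9 of 18), Hoxc6 (11 of 17) and Grina (10 of 17), the only called genes among the 99. The others had no call to lose, and most were picked as separating the arrays. Their kept direction was largely fixed by that choice and is no support. Dkk1, not called, ranged from -0.039 (without wild-type array 2) to 0.10 over single arrays left out. The replicate block, tried because labels reuse replicate numbers, is given only as an alternative.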
